A study of Homo sapiens with 4 samples.

Results

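Axon guidance ligands and receptors were followed in IMR90 cells, a human lung fibroblast line, by RNA-seq of poly(A) RNA. The genes were taken by name: every semaphorin (SEMA), plexin (PLXN), Eph receptor (EPHA, EPHB), ephrin (EFNA, EFNB), Slit and Robo locus, with the neuropilins NRP1 and NRP2. This gave 62 of the 22679 named loci. There were 4 libraries, 1 in each group, all from cells at passage 16 and all from cells carrying a retroviral construct. The groups were oncogene-induced senescence (OIS), in which a tamoxifen-inducible ER:H-RasV12 fusion had been switched on with 10 nM tamoxifen for 8 days; cells infected with a retrovirus for the replacement histone H3.3 in its cleaved form, tagged with Flag and called H3.3cs1, harvested at day 13 (late) and at day 3 (early) after infection; and growing cells with the empty vector pBabe, kept for 13 days. The labels do not say whether the growing cells received tamoxifen. An empty-vector library of day 3 was not analysed here, so in the early comparison construct and time after infection cannot be told apart. Between H3.3cs1 late and early, time under the construct and time after infection cannot be told apart either. No day after infection is given for OIS, so its comparisons cannot separate the construct, tamoxifen and time after infection. With 1 library per group no difference has a replicate check, no test was made, and each value describes that library.

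Semaphorins are ligands, secreted (class 3) or tied to the membrane (most members of classes 4 to 7), and act mainly through plexins. Most secreted class 3 semaphorins reach a plexin through a neuropilin, which binds the ligand. Slits are secreted repellents bound by Robo receptors, and ephrins are membrane-bound ligands of the Eph receptor tyrosine kinases. These systems were named for steering growing axons and are also used by fibroblasts, endothelial cells and leukocytes for adhesion, migration and sorting.

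The promoters of 4 genes are shown because the results turn on them: SLIT2 was lowest in OIS and highest in growing cells, SEMA7A and ROBO4 were highest in OIS, and SEMA3D was highest in H3.3cs1 late. Each is the 300 bases around the first start listed for the gene (250 before, 50 after) from RefSeq on GRCh38.p14, written 5′ to 3′ on the gene's strand, with CG dinucleotides in capitals.
SLIT2, chr4:20251655-20251954, plus strand: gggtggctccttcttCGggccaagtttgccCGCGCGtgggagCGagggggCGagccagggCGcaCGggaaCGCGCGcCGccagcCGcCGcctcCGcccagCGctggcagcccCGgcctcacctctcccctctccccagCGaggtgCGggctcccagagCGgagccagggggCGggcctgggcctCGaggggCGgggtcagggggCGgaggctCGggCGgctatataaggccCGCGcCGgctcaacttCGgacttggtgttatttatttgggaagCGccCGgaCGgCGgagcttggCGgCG
SEMA7A, chr15:74433909-74434208, minus strand: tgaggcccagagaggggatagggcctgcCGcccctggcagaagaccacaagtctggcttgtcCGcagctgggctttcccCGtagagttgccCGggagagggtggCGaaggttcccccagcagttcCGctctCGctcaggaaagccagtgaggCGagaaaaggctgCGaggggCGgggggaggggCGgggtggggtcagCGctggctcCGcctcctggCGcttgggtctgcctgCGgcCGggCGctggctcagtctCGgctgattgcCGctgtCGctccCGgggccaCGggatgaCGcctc
ROBO4, chr11:124897816-124898115, minus strand: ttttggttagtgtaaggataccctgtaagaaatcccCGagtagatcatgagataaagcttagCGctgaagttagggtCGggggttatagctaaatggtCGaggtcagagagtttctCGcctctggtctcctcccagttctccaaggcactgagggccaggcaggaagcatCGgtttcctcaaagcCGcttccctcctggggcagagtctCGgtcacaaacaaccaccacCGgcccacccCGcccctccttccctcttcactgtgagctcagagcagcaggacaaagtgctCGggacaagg
SEMA3D, chr7:85187007-85187306, minus strand: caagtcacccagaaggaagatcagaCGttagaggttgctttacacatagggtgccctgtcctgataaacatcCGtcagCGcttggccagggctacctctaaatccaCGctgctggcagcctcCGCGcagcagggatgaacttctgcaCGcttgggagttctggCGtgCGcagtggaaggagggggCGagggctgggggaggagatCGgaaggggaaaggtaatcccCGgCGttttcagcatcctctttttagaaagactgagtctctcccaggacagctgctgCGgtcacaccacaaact

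The SLIT2 window held 36 CG dinucleotides with a GC content of 74.3%, and that of SEMA7A held 23 with 70.0%. SEMA7A has another listed start, whose window (chr15:74433655-74433954, not printed) held 45 CG dinucleotides with 77.3% GC; the other 3 genes have 1 listed start each. The windows of ROBO4 (11 CG dinucleotides, 55.3% GC) and SEMA3D (14, 57.0% GC) were poorer in both. Among the 33 members that were both measured above the floor described below and matched to a promoter, the median GC content was 69.0% and the median CG count 25 per window. All named loci above that floor had a median of 65.7% GC and 27 CG dinucleotides (8475 loci). The 22 matched members below the floor had medians of 61.8% GC and 19 CG dinucleotides, against 56.0% and 7 in all 5243 named loci below it.

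Expression is given in FPKM, which divides a locus's fragments by its length and by the size of the library, so levels can be set side by side between genes. A locus entered a comparison when any of the libraries held it at an FPKM of 1 or more (the floor) and when it was above 0 in both libraries compared. Differences are on the log2(FPKM + 1) scale, which understates those of low genes, and a gene is said to have risen or fallen only when it differed by at least 2-fold on that scale. Between 11063 and 11271 named loci per library reached an FPKM of 1, and depth, roughly estimated from the steps of the lowest values, was 82.4% (OIS), 78.2% (H3.3cs1 late) and 95.9% (H3.3cs1 early) of that of growing cells. HRAS, the gene activated in OIS, stood at 3153 FPKM in OIS and at 41.9 to 49.8 FPKM in the other libraries. H3F3B, a gene for H3.3, stood at 90.5 FPKM in OIS, 450 in H3.3cs1 late, 229 in H3.3cs1 early and 105 in growing cells, and H3F3A at 236, 132, 130 and 190 FPKM in the same order; FPKM per gene cannot separate the construct from the cell's own copies. Of 10 lung fibroblast markers, 9 were found under their own names, all above the floor, with summed FPKM of 7174 in OIS, 13679 in H3.3cs1 late, 8339 in H3.3cs1 early and 12811 in growing cells; their part in the results below was not tested. In bulk RNA, fewer cells of a type and less RNA per cell cannot be told apart.

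Of the 62 member loci, 36 (58.1%) passed the floor, against 12183 of all named loci (53.7%). At this level there were 32 members in OIS, 33 in H3.3cs1 late, 33 in H3.3cs1 early and 36 in growing cells. No member passed through 1 library alone, and 27 reached an FPKM of 1 in every library. At 10 FPKM in every library stood 11 members. The highest by mean level was SEMA7A, a membrane-anchored semaphorin, followed by the receptors PLXNB2, NRP1, PLXNA3, EPHA2, EPHB2 and PLXNA1 and the secreted ligand SEMA3C. At the edge of the floor, EPHB3 was inside with 0.769 FPKM in OIS, 1.23 in H3.3cs1 late, 1.63 in H3.3cs1 early and 1.18 in growing cells, and EFNB3 was outside with 0.402, 0.174, 0.901 and 0.389 FPKM in the same order.

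**Figure D1:**
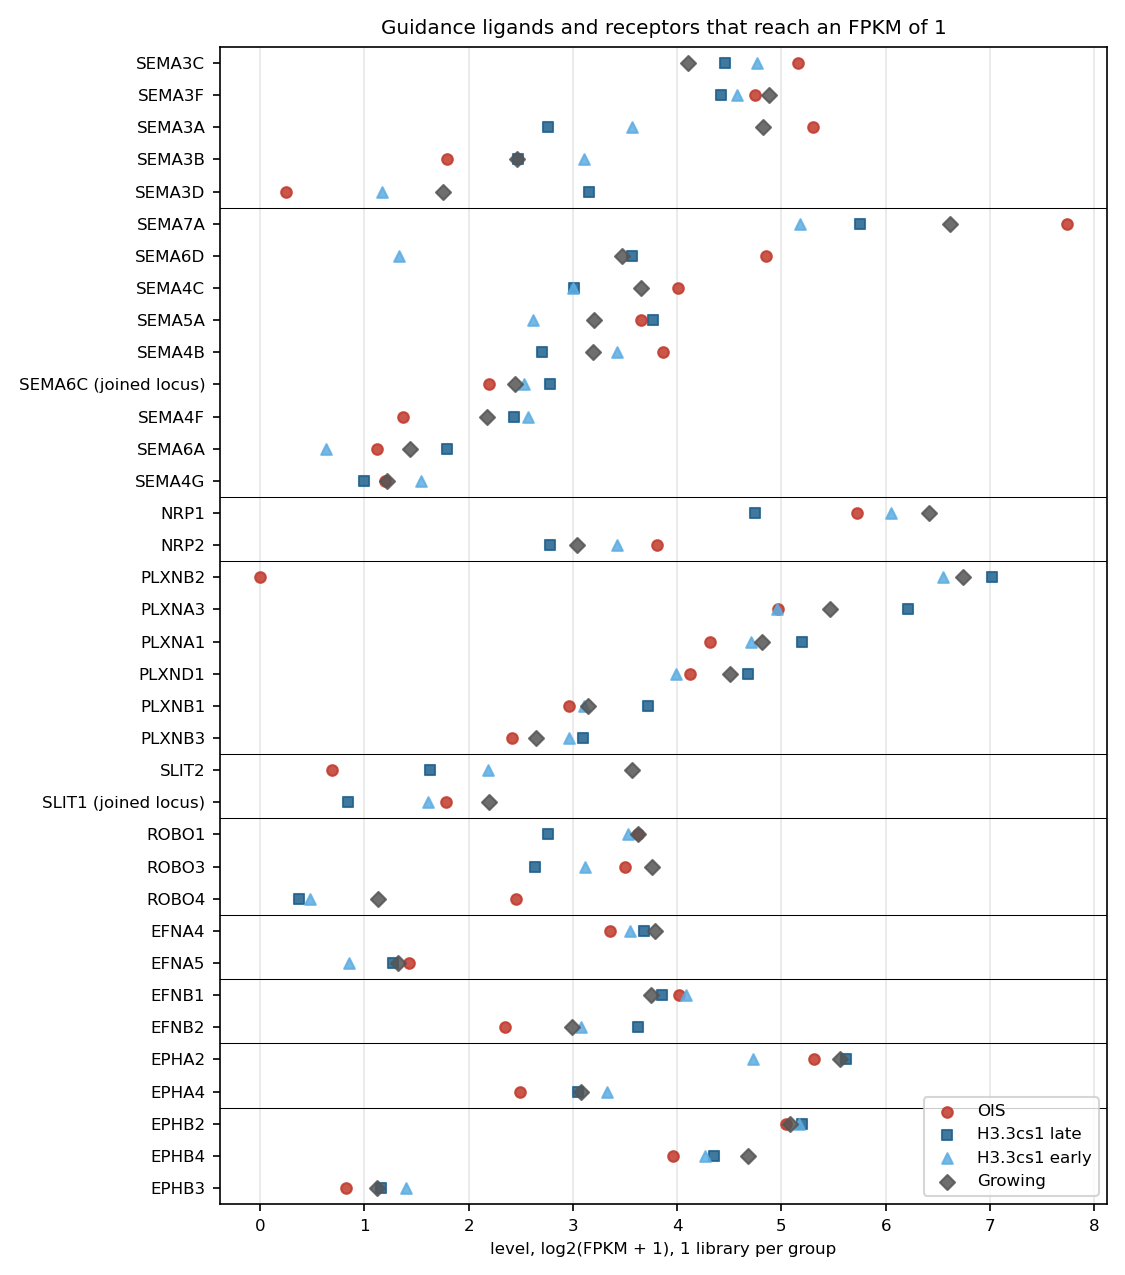
Level, as log2(FPKM + 1), of the 36 member loci above the floor, with 1 point per library. SEMA7A was the highest in OIS (212 FPKM), EPHB2 barely differed among the libraries (32.0 to 35.6 FPKM), and PLXNB2 was listed at 0 in OIS.

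PLXNB2, a receptor of class 4 semaphorins, was listed at 0 FPKM in OIS, against 128 in H3.3cs1 late, 93.0 in H3.3cs1 early and 106 in growing cells. A 0 of this kind can be a failed estimate, since 75 of the 12183 loci above the floor were listed at 0 in OIS, 87 in H3.3cs1 late, 73 in H3.3cs1 early and 63 in growing cells. No difference against OIS is given for it.

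Against growing cells, 6 members differed in OIS and 6 in H3.3cs1 late, and 4 in H3.3cs1 early. In OIS, 4 of 35 members rose and 2 fell (17.1%), where 16.8% of all 12067 loci tested differed (8.88% higher, 7.96% lower). In H3.3cs1 late, 1 of 36 rose and 5 fell (16.7%), against 8.68% of 12070 loci (3.41% higher, 5.28% lower). In H3.3cs1 early none rose and 4 of 36 fell (11.1%), against 5.08% of 12081 loci (1.28% higher, 3.8% lower). The OIS share was near that of all loci, and the shares of both H3.3cs1 libraries were above it. Those higher shares rest on few members and were not tested against the shares of all loci. These comparisons share the growing library. The median log2 difference of the members was -0.24 in OIS, 0.020 in H3.3cs1 late and -0.27 in H3.3cs1 early, beside 0.033, -0.041 and -0.027 over all loci. Scaling each library to the same sum over named loci moved the median of all loci to -0.17 in OIS and 0.19 in H3.3cs1 early. The calls over all loci then came to 770 higher and 1304 lower in OIS, in place of 1072 and 961, and to 300 higher and 314 lower in H3.3cs1 early, in place of 155 and 459; in this scaling the members' median was -0.41 in OIS and -0.0018 in H3.3cs1 early, and 2 members rose and 2 fell in OIS.

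**Figure D2:**
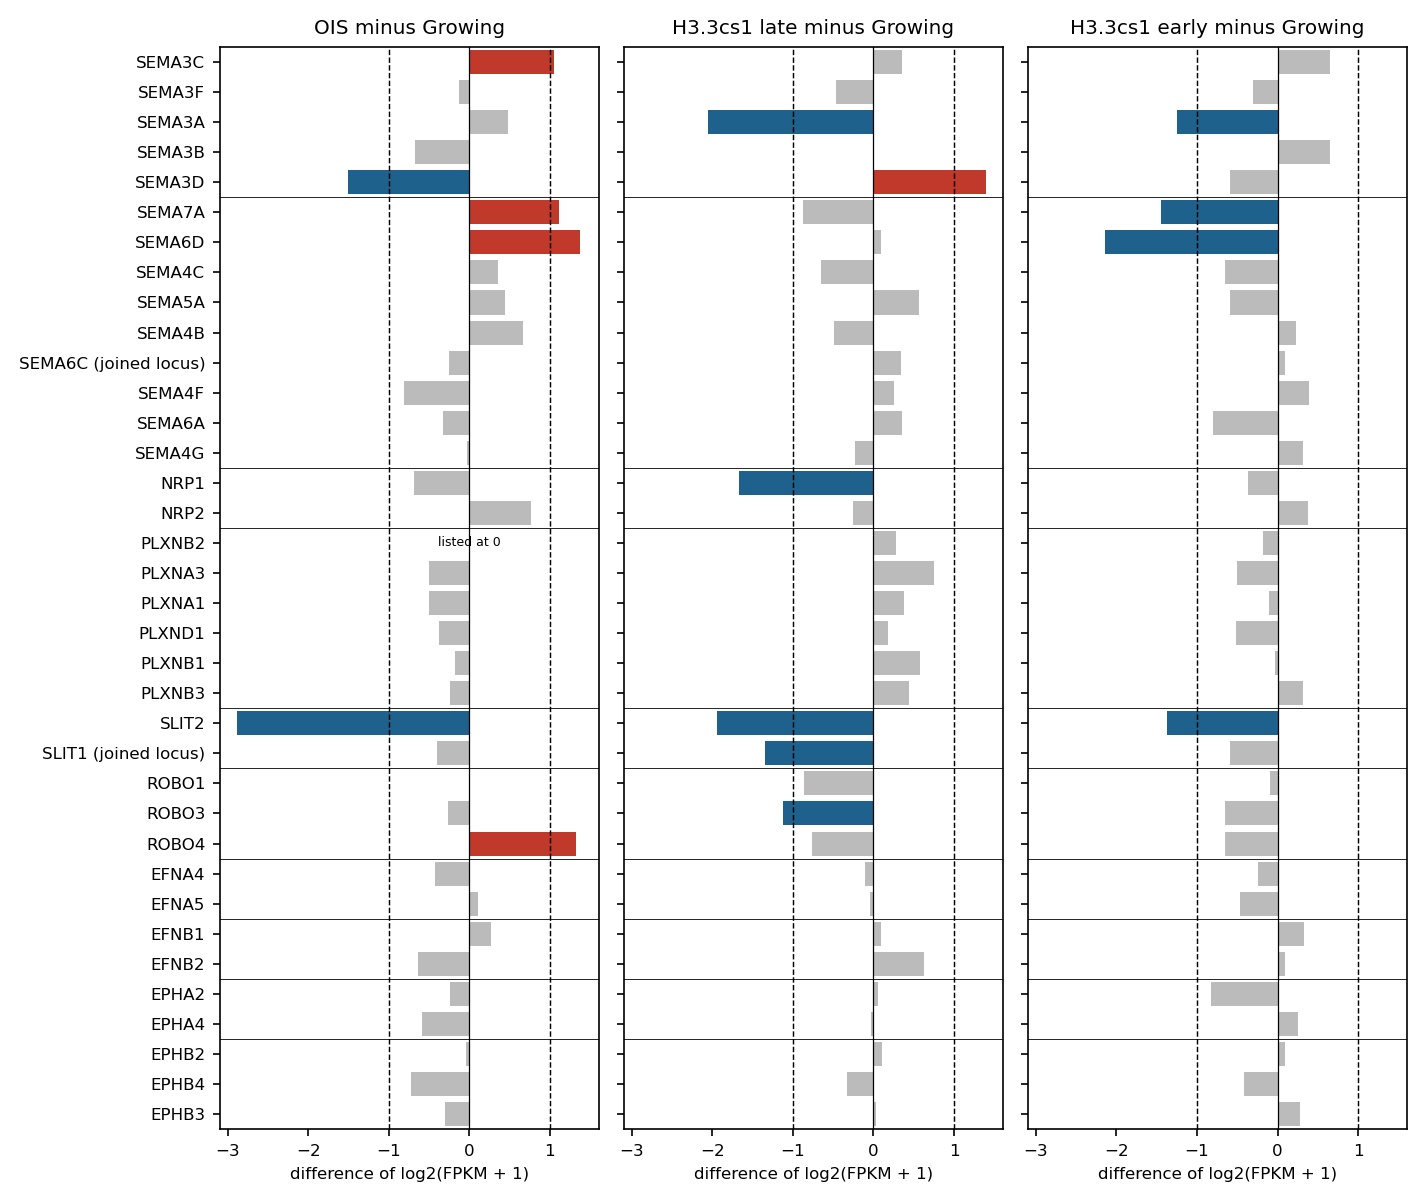
Log2(FPKM + 1) differences from growing cells of the members above the floor, in OIS, H3.3cs1 late and H3.3cs1 early; dashed lines mark 2-fold, and coloured bars pass it (red higher, blue lower). SLIT2 lay past 2-fold below growing cells in OIS (-2.88), H3.3cs1 late (-1.94) and H3.3cs1 early (-1.38).

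SLIT2 was the only member that differed by 2-fold from growing cells in all 3 other libraries. It stood at 0.607 FPKM in OIS, 2.08 in H3.3cs1 late, 3.56 in H3.3cs1 early and 10.8 in growing cells, which gives log2 differences of -2.88, -1.94 and -1.38 in the first 3. How many of all loci differed in all 3 was not counted. The 3 differences of SLIT2 share the single growing value, and its OIS value was under 1 FPKM. Its difference of OIS from H3.3cs1 late was -0.94, just short of 2-fold. SLIT1, another Slit, is counted with its neighbour ARHGAP19 in 1 joined locus, which stood at 2.45, 0.796, 2.04 and 3.56 FPKM in OIS, H3.3cs1 late, H3.3cs1 early and growing cells; it fell in H3.3cs1 late (-1.35), and the part of each gene in that value is unknown. SLIT3 was below 0.2 FPKM in every library. The Slit genes measured alone summed to 0.639 FPKM in OIS, 2.28 in H3.3cs1 late, 3.58 in H3.3cs1 early and 10.9 in growing cells.

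The 3 Robo receptors above the floor were all lowest in H3.3cs1 late, below growing cells, H3.3cs1 early and OIS, also with libraries scaled to the same sum or quantile normalized. ROBO3 was highest in growing cells and ROBO4 in OIS. ROBO1, the broadly expressed Slit receptor, stood at 11.3 FPKM in OIS, 5.78 in H3.3cs1 late, 10.5 in H3.3cs1 early and 11.3 in growing cells, and its difference in H3.3cs1 late, -0.86, was short of 2-fold. ROBO3, known from the crossing of the midline by axons, stood at 10.3, 5.21, 7.65 and 12.6 FPKM and fell in H3.3cs1 late (-1.13). ROBO4, known from endothelial cells, stood at 4.47 FPKM in OIS, 0.292 in H3.3cs1 late, 0.397 in H3.3cs1 early and 1.19 in growing cells. It was highest in OIS, where it rose by 1.32 against growing cells and was 2.08 above H3.3cs1 late. ROBO3 and ROBO4 are neighbours on chromosome 11. ROBO4 exons share 730 and 259 bases with 2 genes of the opposite strand in GENCODE v29, and the library kit does not mark strand.

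Of 10 endothelial markers, 3 (TIE1, TEK and CLDN5) passed the floor, and the list summed to 18.1 FPKM in OIS, 1.23 in H3.3cs1 late, 2.13 in H3.3cs1 early and 2.13 in growing cells. CLDN5 stood at 11.6 FPKM in OIS and at most at 0.254 elsewhere, and TIE1 at 4.05 FPKM in OIS and at most at 0.631 elsewhere. Against growing cells CLDN5 (3.42) and TIE1 (1.63) rose in OIS, and TEK (0.35) did not. CDH5, a defining endothelial cadherin, was listed at 0 in every library, KDR did not exceed 0.0129 FPKM, and PECAM1 stood at 0.115 FPKM in OIS and 0 elsewhere. The neuron list passed the floor with 4 of 10 genes and summed to 177, 167, 244 and 246 FPKM in OIS, H3.3cs1 late, H3.3cs1 early and growing cells, almost all of it TUBB3; STMN2 and ELAVL4 were listed at 0 in every library. The epithelial list passed with 4 of 8 genes and summed to 22.4, 185, 73.0 and 91.6 FPKM in the same order. KRT18 was the largest part of that sum in each library, at 13.1, 170, 50.9 and 80.0 FPKM. CDH1 did not exceed 0.116 FPKM and EPCAM 0.495, and NKX2-1 was listed at 0 in every library. The glial list passed with 2 of 6 and summed to 2.55, 0.833, 1.76 and 0.480 FPKM in OIS, H3.3cs1 late, H3.3cs1 early and growing cells. None of the leukocyte markers found passed the floor (summed FPKM 0.251 to 0.432). The part of these lists in the results was not tested.

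**Figure D3:**
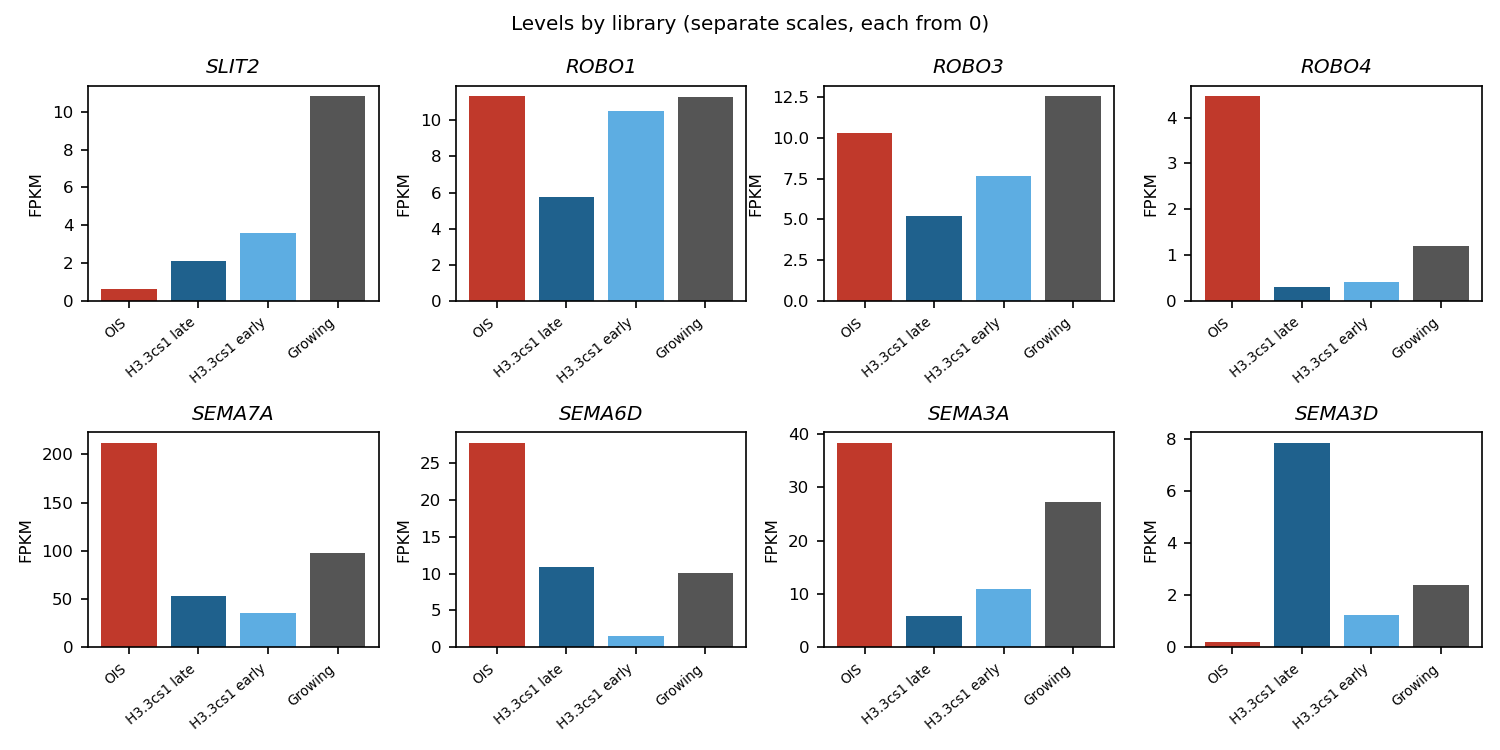
FPKM of SLIT2, ROBO1, ROBO3, ROBO4, SEMA7A, SEMA6D, SEMA3A and SEMA3D (bars, separate axes from 0) in each library. SLIT2 was highest in growing cells (10.8) and ROBO4 in OIS (4.47), and SEMA6D was lowest in H3.3cs1 early (1.51).

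The secreted class 3 semaphorins differed in composition more than in sum. Together they gave 102 FPKM in OIS, 60.2 in H3.3cs1 late, 68.9 in H3.3cs1 early and 79.3 in growing cells. SEMA3A, a repellent that binds NRP1, stood at 38.4 FPKM in OIS, 5.80 in H3.3cs1 late, 10.9 in H3.3cs1 early and 27.2 in growing cells. It fell in both H3.3cs1 libraries, by 2.05 in late and by 1.25 in early, and was 2.53 higher in OIS than in H3.3cs1 late. It made up 37.7% of the class sum in OIS, 9.62% in H3.3cs1 late, 15.8% in H3.3cs1 early and 34.3% in growing cells.

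Among the members above 0 in every library, SEMA3D had the widest range, 42.4-fold in FPKM, which rests on an OIS value well under 1 FPKM. It stood at 0.185 FPKM in OIS, 7.87 in H3.3cs1 late, 1.25 in H3.3cs1 early and 2.38 in growing cells. It fell in OIS (-1.51), rose in H3.3cs1 late (1.39), and the difference of OIS from H3.3cs1 late was -2.90. SEMA3A and SEMA3D are neighbours on chromosome 7, and their order across the libraries was not the same: OIS was the highest for SEMA3A and the lowest for SEMA3D.

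SEMA3C stood at 34.7 FPKM in OIS, 20.9 in H3.3cs1 late, 26.1 in H3.3cs1 early and 16.2 in growing cells. It rose in OIS by 1.05, which was 0.82 with libraries scaled to the same sum and 0.91 with quantile normalization, so that call did not hold under either. The ratio of SEMA3A to SEMA3C was 1.11 in OIS, 0.277 in H3.3cs1 late, 0.416 in H3.3cs1 early and 1.68 in growing cells. SEMA3F, which binds mainly NRP2, ranged from 20.4 to 28.4 FPKM and SEMA3B from 2.46 to 7.63, with no 2-fold difference in any comparison.

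The neuropilins, receptors of these ligands, summed to 65.0 FPKM in OIS, 31.7 in H3.3cs1 late, 74.9 in H3.3cs1 early and 91.6 in growing cells. NRP1 stood at 52.0, 25.8, 65.2 and 84.4 FPKM in the same order. It fell in H3.3cs1 late, both against growing cells (-1.67) and against H3.3cs1 early (-1.30). NRP2 stood at 13.0 FPKM in OIS, 5.89 in H3.3cs1 late, 9.70 in H3.3cs1 early and 7.21 in growing cells. The ratio of NRP2 to NRP1 was 0.250 in OIS, 0.228 in H3.3cs1 late, 0.149 in H3.3cs1 early and 0.0854 in growing cells. The NRP1 exons share 561 bases with an opposite-strand gene in GENCODE v29, and NRP2 exons 147 bases.

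**Figure D4:**
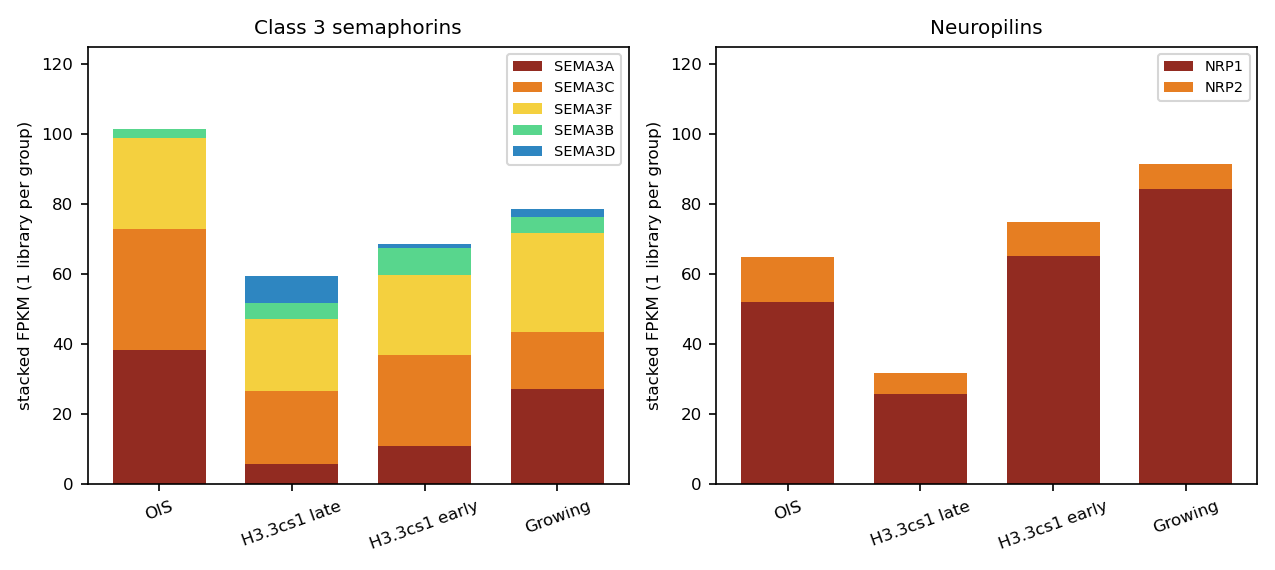
Summed FPKM of the class 3 semaphorins above the floor, stacked by gene, and of NRP1 and NRP2, in each library. SEMA3A took 37.7% of the class sum in OIS and 9.62% in H3.3cs1 late, while NRP1 was 25.8 FPKM in H3.3cs1 late and 84.4 in growing cells.

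Among the semaphorins of classes 4 to 7, SEMA7A and SEMA6D carried the differences from growing cells. SEMA7A, a GPI-anchored ligand that also binds integrins, stood at 212 FPKM in OIS, 52.8 in H3.3cs1 late, 35.1 in H3.3cs1 early and 97.2 in growing cells. It rose in OIS by 1.12 (0.88 with libraries scaled to the same sum and 0.98 with quantile normalization, both short of 2-fold) and fell in H3.3cs1 early (-1.44); in H3.3cs1 late the difference was -0.87. It was 74.5% of its class sum in OIS, 54.3% in H3.3cs1 late, 52.1% in H3.3cs1 early and 68.2% in growing cells. PLXNC1, the plexin that binds SEMA7A, stayed at or below 0.758 FPKM in every library.

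SEMA6D, a transmembrane ligand of class A plexins, stood at 27.8 FPKM in OIS, 10.9 in H3.3cs1 late, 1.51 in H3.3cs1 early and 10.1 in growing cells. It rose in OIS (1.38) and fell in H3.3cs1 early (-2.14), while H3.3cs1 late lay close to growing cells. SEMA6A ranged from 0.548 FPKM in H3.3cs1 early to 2.47 in H3.3cs1 late, and SEMA5A from 5.13 in H3.3cs1 early to 12.6 in H3.3cs1 late. The joined locus of LYSMD1 and SEMA6C ranged from 3.59 to 5.89 FPKM with no 2-fold difference, and the part of each gene in it is unknown.

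The plexins tested lay less than 2-fold from growing cells, with opposite signs in OIS and H3.3cs1 late. In OIS all 5 tested lay below growing cells (-0.50 to -0.18) and in H3.3cs1 late all 6 lay above (0.18 to 0.75), signs that both other scalings kept. Of all members, 23 of 35 lay below growing cells in OIS and 19 of 36 above them in H3.3cs1 late. None of the plexins reached 2-fold against growing cells, where 16.8% of all loci did in OIS and 8.68% in H3.3cs1 late. With so few genes that count cannot be set apart from these shares. In H3.3cs1 early 5 of the 6 lay below growing cells, but 2 of 6 did so under either other scaling. PLXNA3, a class A plexin that pairs with neuropilins, stood at 30.3 FPKM in OIS, 73.2 in H3.3cs1 late, 30.0 in H3.3cs1 early and 43.1 in growing cells. It was highest in H3.3cs1 late, past 2-fold against OIS and against H3.3cs1 early. PLXNA1 ranged from 18.9 to 35.6 FPKM, PLXND1 from 14.9 to 24.7, PLXNB1 from 6.81 to 12.2 and PLXNB3 from 4.33 to 7.54.

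Of the Eph receptors and ephrins, only EFNB2 differed by 2-fold in any comparison. Of their 22 loci, 9 passed the floor, and none of the 9 differed by 2-fold from growing cells in any library or between H3.3cs1 late and H3.3cs1 early. Of all loci, 16.8% differed from growing cells in OIS, 8.68% in H3.3cs1 late and 5.08% in H3.3cs1 early. Between H3.3cs1 late and H3.3cs1 early, 8.53% of all loci differed. With only 9 loci, a count of 0 cannot be set apart from these shares. EPHB2, a receptor tyrosine kinase, stood at 32.0 FPKM in OIS, 35.6 in H3.3cs1 late, 35.0 in H3.3cs1 early and 32.9 in growing cells. Its ratio of highest to lowest FPKM, 1.11, was the smallest of the 9 loci. That ratio was 2.75 in EFNB2, 2.12 in EPHB3 and 2.09 in EFNA5. EPHA2 stood at 38.8, 48.2, 25.5 and 46.2 FPKM in the same order, and its difference in H3.3cs1 early was -0.83. EFNB2, a transmembrane ephrin, stood at 4.10 FPKM in OIS, 11.3 in H3.3cs1 late, 7.44 in H3.3cs1 early and 6.93 in growing cells. Its difference of OIS from H3.3cs1 late was -1.27, the only one past 2-fold in these families, where 19% of all loci differed. EPHB4 ranged from 14.5 FPKM in OIS to 24.7 in growing cells, EPHA4 from 4.61 in OIS to 9.05 in H3.3cs1 early, and EFNB1 from 12.5 in growing cells to 15.9 in H3.3cs1 early. EPHA2 made up between 73.5% and 88.9% of the EphA sum and EFNA4 between 79.4% and 85.5% of the ephrin-A sum. Both A-type groups thus rested largely on 1 gene each. EFNB2 exons share 1303 bases with an opposite-strand gene in GENCODE v29.

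Between H3.3cs1 late and H3.3cs1 early, 5 of 36 members rose and 1 fell (16.7%), against 8.53% of 12059 loci (5.33% higher, 3.2% lower). The members' share rests on few genes and was not tested against that of all loci. SEMA6D (2.24), SEMA3D (1.98), PLXNA3 (1.26), SEMA6A (1.16) and SEMA5A (1.15) were higher in late, and NRP1 lower (-1.30). The SEMA5A call fell short with libraries scaled to the same sum (0.94), where the all-loci median was -0.26 in place of -0.046 and 438 loci were higher and 778 lower, in place of 643 and 386. SEMA5A and SEMA6A are transmembrane semaphorins; in GENCODE v29 SEMA5A exons share 436 bases with an opposite-strand gene, SEMA6A exons 268 and 58 bases, and PLXNA3 exons 11 bases.

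Between OIS and H3.3cs1 late, 7 of 35 members were higher and 4 lower in OIS (31.4%), against 19% of 12044 loci (10.8% higher, 8.2% lower). Here too the members' share rests on few genes and was not tested against that of all loci. SEMA3A (2.53), ROBO4 (2.08), SEMA7A (1.99) and SEMA6D (1.28) were higher in OIS. SEMA4B (1.16), NRP2 (1.02) and SEMA4C (1.0006) were also past 2-fold, but short of it with libraries scaled to the same sum (0.93, 0.80 and 0.77) and with quantile normalization (0.97, 0.84 and 0.81). The all-loci median of this comparison, 0.092, became -0.12 with the same sum, where 942 loci were higher and 1374 lower in place of 1301 and 988. SEMA3D (-2.90), EFNB2 (-1.27), PLXNA3 (-1.24) and SEMA4F (-1.07) were lower in OIS. SEMA4B, SEMA4C and SEMA4F are transmembrane class 4 semaphorins. SEMA4B stood at 13.6 FPKM in OIS, 5.53 in H3.3cs1 late, 9.70 in H3.3cs1 early and 8.15 in growing cells. SEMA4C stood at 15.1, 7.05, 6.99 and 11.6 FPKM in the same order, and SEMA4F at 1.58, 4.42, 4.93 and 3.52 FPKM. OIS was the highest library for SEMA4B and SEMA4C and the lowest for SEMA4F.

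Another 119 genes of these pathways were counted beside the members, 117 of them found by name. In OIS 9 of 89 tested rose and 8 fell (19.1%, against 16.8% of all loci), in H3.3cs1 late 3 rose and 6 fell of 89 (10.1%, against 8.68%), and in H3.3cs1 early none rose and 2 of 88 fell (2.27%, against 5.08%). Between H3.3cs1 late and H3.3cs1 early 9 of 88 were higher and 3 lower (13.6%, against 8.53%), and between OIS and H3.3cs1 late 9 of 89 were higher and 15 lower (27.0%, against 19%). In OIS and H3.3cs1 late the shares against growing cells were near those of all loci.

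Of 17 netrins, repulsive guidance molecules and their receptors, 7 passed the floor. In OIS 3 rose and 1 fell, in H3.3cs1 late 1 rose, and in H3.3cs1 early 2 fell. Of all loci, 16.8%, 8.68% and 5.08% differed in these comparisons. The list is small, and its counts were not tested against those shares. NTN4, a secreted netrin, stood at 5.81 FPKM in OIS, 49.5 in H3.3cs1 late, 5.44 in H3.3cs1 early and 18.0 in growing cells. It fell in OIS (-1.48), rose in H3.3cs1 late (1.41) and fell in H3.3cs1 early (-1.56); as for SEMA3D, H3.3cs1 late was the highest library and growing cells the next. NTNG1, a GPI-anchored netrin, rose in OIS (1.71), as did its relative NTNG2 (1.11) and DCC, a netrin receptor (1.36). RGMB, a repulsive guidance molecule, stood at 88.4 FPKM in OIS, 189 in H3.3cs1 late, 59.6 in H3.3cs1 early and 153 in growing cells and fell in H3.3cs1 early (-1.34).

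Of 17 co-receptors and receptor-processing proteases, 13 passed. In OIS 2 rose and 4 fell, in H3.3cs1 late 2 rose and 1 fell, and in H3.3cs1 early none differed by 2-fold. Of all loci, 16.8%, 8.68% and 5.08% differed in these comparisons. This list is also small, and its counts were not tested against those shares. L1CAM, an adhesion molecule that associates with NRP1, stood at 15.6 FPKM in OIS, 24.2 in H3.3cs1 late, 2.91 in H3.3cs1 early and 2.86 in growing cells. It rose in OIS (2.11) and in H3.3cs1 late (2.71), where NRP1 itself fell. MET, a receptor tyrosine kinase whose extracellular part carries a semaphorin domain, fell in OIS (-2.79) and stood at 1.07 FPKM there, against 13.3 in growing cells. SDC1, a heparan sulfate proteoglycan, fell in OIS (-1.58) and in H3.3cs1 late (-2.08).

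Of 27 effectors of semaphorins and plexins, 24 passed; 1 rose (RND3, which binds plexins, 1.18) and 1 fell (FES, a tyrosine kinase, -1.41) in OIS, and FES (-1.60) and DPYSL3 (-1.77), a collapsin response mediator, fell in H3.3cs1 late. Of 22 Eph effectors, 14 passed; RASA1, a Ras GTPase-activating protein, rose in OIS (1.06), and CHN1 (-1.09), a Rac GTPase-activating protein, and ARHGEF19 (-1.15) fell in H3.3cs1 late. Of 18 effectors of Slit and Robo, 14 passed; CAP2 (-2.20), an actin-binding protein, and PAK3 (-1.40), a kinase, fell in OIS, and SRGAP1 (-1.05), a Robo-binding GTPase-activating protein, fell in H3.3cs1 late. Of 18 shared cytoskeletal effectors, 17 passed; LIMK1, a kinase that phosphorylates cofilin (1.84), and ABLIM3, an actin-binding protein (1.14), rose in OIS. None of the effectors tested in these 4 lists differed by 2-fold in H3.3cs1 early, where 5.08% of all loci did. Of all loci, 16.8% differed from growing cells in OIS and 8.68% in H3.3cs1 late. ARHGEF12, which binds class B plexins, was listed at 0 in H3.3cs1 early, against 21.8 FPKM in growing cells, and was left out of that comparison.

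The members below the floor included both genes listed at 0 in every library, EPHA8 and SEMA5B. Including these, 8 members never reached 0.1 FPKM. ROBO2, PLXNA2, SEMA3E and PLXNC1 lay between these and the floor. Absence of a transcript cannot be read from these values, since low FPKM values rest on few fragments.

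Of the 62 member names, 55 had a promoter in the RefSeq table (86 starts). Sequence motifs were searched by exact letters on both strands. The AP-1 site (TGANTCA) was found in 1 of the 86 member windows (PLXNC1) and in 7.71% of all 35116 windows, the CRE (TGACGTCA) in 3 (EPHA2, SEMA3B and SEMA4C) and 1.85%, and the TATA box (TATAAA) in 3 and 11.5%. The YAP/TEAD site (GGAATG) was found in 9 and 14.0%. The NF-kappaB site was found in 0.558% of all windows, the E2F site (TTTCCCGC) in 1.63% and the SMAD box (GTCTAGAC) in 0.202%, and none of the 3 in a member window. None of the 7 exact strings was found in the 4 windows printed above. Variants of a motif were not searched, and the SLIT2 window holds tataag, 1 letter off the TATA box string. No overlap between motifs was removed, and a motif missing from a window says only that its letters are not there.

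**Figure D5:**
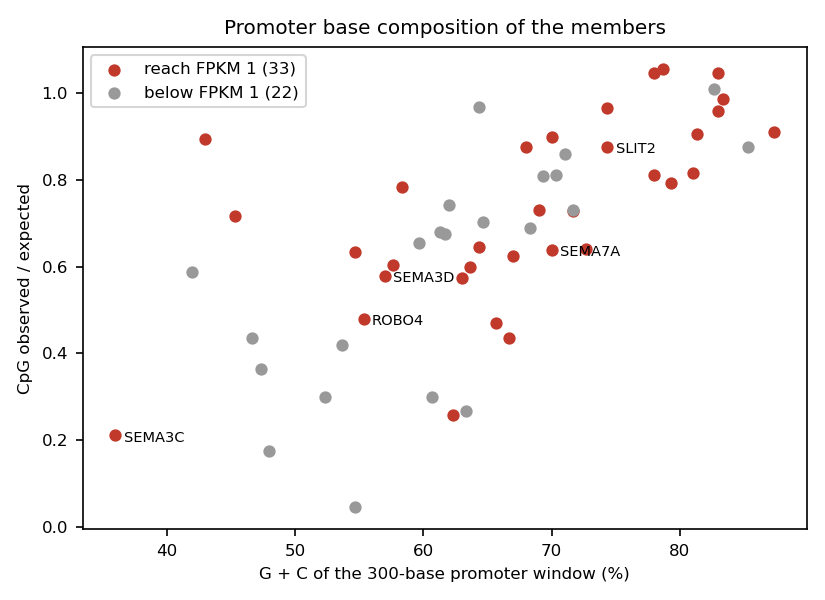
GC content and CG observed-over-expected ratio (number of CG dinucleotides over that expected from the C and G content) of the first promoter window of each member; red points reached the floor and grey points did not. Members above the floor had a median of 69.0% GC (n = 33) and those below it 61.8% (n = 22).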

How the data were processed

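RNA-seq was measured in 4 samples, 1 library per group. Per the labels' protocols, RNA was extracted with RNeasy, poly(A)-selected and prepared with the TruSeq RNA v2 kit, which does not mark strand, and sequenced on an Illumina HiSeq. The authors deposited FPKM, 1 value per locus and library; Bowtie2, TopHat2 2.0.3, Cufflinks 2.1.1 and the hg19 build are named, without roles, in the submitters' processing notes. Counts were not used here, and how shared reads and library scaling were handled is not given in the sources used here, so no interval is given. Relative depth was estimated from loci under 0.05 FPKM. Per the file headers, the names stand 1 column away from the values, so each file's sample was taken from its record, and HRAS served as a check.

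Each file had 26468 lines, and 2310 unnamed lines were left out. These held 47.4% of the summed FPKM in OIS, 48.0% in H3.3cs1 late, 57.9% in H3.3cs1 early and 49.0% in growing cells. Lines of the same name were summed (540 names, none of them members), and 739 joined names were kept as they stand. Differences used log2(FPKM + 1), a floor of 1 FPKM in at least 1 library and a size of at least 2-fold, with loci listed at 0 left out; no test was run. Named genes were every member past 2-fold in a comparison, the 8 with the highest mean, members listed at 0 in 1 library and above the floor in another, joined members, up to 3 genes per direction of each other list, and HRAS, H3F3A and H3F3B; others named are given to show the floor, the spread or the markers. Members and lists were chosen with earlier results of these data known. Alternatives were a pseudocount of 0.1, a floor of 5 FPKM, no floor, equal sums, quantile normalization, loci at 0 kept, the highest line in place of the sum, and joined loci left out. The size rule was tried on simulated loci at an FPKM of 5 or more with little noise and changes well past 2-fold. That check does not cover lower loci, differences near 2-fold or the spread between real libraries. Promoters came from RefSeq on GRCh38.p14 and exon overlaps from GENCODE v29, matched by gene name; no coordinate was converted. Python 3.11.15, numpy 2.4.6 and matplotlib 3.10.9 were used.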

Additional observations from a re-analysis of the deposited data

Results flagged for a closer look

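SEMA3D lay below growing cells in OIS and above them in H3.3cs1 late, past 2-fold each way. The difference between these 2 contrasts was -2.90 on the log2 scale (OIS minus H3.3cs1 late). SEMA6D lay above growing cells in OIS and below them in H3.3cs1 early, a difference of 3.52 (OIS minus H3.3cs1 early), and SEMA7A did likewise, with a difference of 2.56. The rise of SEMA7A in OIS was short of 2-fold with libraries scaled to the same sum and with quantile normalization, so its flag did not hold under either. Each pair of contrasts shares the growing library, each group has 1 library, and none of these differences was tested.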

How the results depend on the processing

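Of the 33 member differences past 2-fold, 258 values were recomputed under the 8 alternatives. Of these, 247 were still past 2-fold, 11 were not, and none changed sign. Only equal sums and quantile normalization could bring a member below 2-fold: 27 of 33 held under equal sums and 28 of 33 under quantile normalization. A smaller pseudocount can only enlarge a difference, and the other alternatives leave the values they keep unchanged, so those add no support. With libraries scaled to the same sum, the members higher in OIS than in growing cells numbered 2 in place of 4, and those higher in OIS than in H3.3cs1 late 4 in place of 7; quantile normalization gave 2 and 4 as well. Members lower in H3.3cs1 late than in H3.3cs1 early numbered 2 in place of 1 with a pseudocount of 0.1 and with the same sum. The other counts of members stayed within 1.5 times their value. Over all loci, the pseudocount of 0.1 gave 1417 higher and 1473 lower loci in OIS than in growing cells in place of 1072 and 961. Scaling to the same sum moves all values of a library together by construction; the cause of the other shifts was not tested. No paired analysis was possible because each group has 1 library. Depth per locus is unknown, so the precision of members under 1 FPKM in a library they are compared in (SLIT2, SEMA3D, ROBO4, SEMA6A and the joined SLIT1 locus among those past 2-fold) is not known.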
